A study of Homo sapiens with 9 samples.

Results

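Transcript levels were described for 10 amino acid transporter genes among the 58735 genes of one expression table. The genes were SLC7A5, SLC3A2, SLC43A1, SLC43A2, SLC7A11, SLC7A1, SLC1A5, SLC38A1, SLC38A2 and SLC6A9, found by name in the table, with 1 entry each. RNA was sequenced from H1299, an established human non-small cell lung cancer line that the labels call lung adenocarcinoma cells. KO1 and KO2 are 2 lines edited at BCKDK by CRISPR, each grown out from a single cell by limiting dilution, with the genotype BCKDK Knockout and 3 libraries each. Vector cells are wild type for BCKDK, carry the lentiCRISPR v2 plasmid by lentiviral transduction, and also gave 3 libraries. Each knockout line is 1 clone, and the labels call KO1 and KO2 monoclonal but not Vector, so BCKDK loss and the history of a clone cannot be told apart in a comparison with Vector. Whether the 3 libraries of a group are separate cultures is not stated in the labels, so the p-values measure only the spread between these libraries.

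BCKDK is a mitochondrial kinase that holds in check the branched-chain ketoacid dehydrogenase, the enzyme complex that commits leucine, isoleucine and valine to breakdown. These amino acids enter cells through carriers of the plasma membrane. The best studied is LAT1, in which the light chain SLC7A5 carries large neutral amino acids such as leucine inward in exchange for another amino acid such as glutamine. LAT1 needs the heavy chain SLC3A2, also named CD98, to reach the cell surface. The same heavy chain pairs with SLC7A11, which takes up cystine in exchange for glutamate and so supplies cysteine for glutathione. SLC43A1 (LAT3) and SLC43A2 (LAT4) carry branched-chain amino acids without exchange. Glutamine enters through SLC1A5 (ASCT2), an exchanger of neutral amino acids, and through the sodium-coupled carriers SLC38A1 and SLC38A2. SLC7A1 carries arginine and lysine, and SLC6A9 carries glycine. Many of these genes are known as targets of ATF4, a transcription factor made when amino acids run short, and some as targets of MYC.

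The levels are FPKM, that is read counts scaled by exon length and by a factor per library, here a size factor and not the read total, so that genes of different length can be compared. Depth was close to equal, at 16002212 to 17090445 recovered reads per library. BCKDK, the edited gene, measured 1.91, 2.06 and 1.67 FPKM in KO1 and 0.628, 0.576 and 0.287 FPKM in KO2, against 13.7, 12.9 and 17.5 FPKM in Vector. Replicate 3 of KO2 and replicate 3 of Vector each stood apart within their own group. Their chi-square per degree of freedom against their group was 45.0 to 52.8, while the other pairs within a group gave 2.39 to 6.82. Of 6 markers of lung adenocarcinoma (NKX2-1, NAPSA, SFTPB, SFTPC, KRT7 and EPCAM), 0 reached a mean of 0.5 FPKM over the 9 libraries. KRT7 differed most between the groups, at 1.24, 0.871 and 0.607 FPKM in KO1 and 0.0553, 0.0818 and 0.166 FPKM in KO2, against 0.0742, 0.0577 and 0.167 FPKM in Vector. The 6 together summed to 0.726 to 1.35 FPKM in KO1 and 0.561 to 0.645 FPKM in KO2, against 0.413 to 0.573 FPKM in Vector. Markers of immune, endothelial and fibroblast cells, 12 genes in all, likewise had 0 members at a mean of 0.5 FPKM over the 9 libraries. The 4 fibroblast markers together summed to 0 to 0.0274 FPKM in KO1 and 0.536 to 0.721 FPKM in KO2, against 0.141 to 0.201 FPKM in Vector, and COL1A1 had 0 to 3 reads in KO1 and 61 to 89 in KO2, against 5 to 8 in Vector. The part of these marker levels in the results was not tested. In bulk RNA, fewer cells of one kind and less RNA per cell cannot be told apart.

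Promoter sequences are shown for 6 of the members. RefSeq start-site windows of the build GRCh38.p14, from 250 bases before to 50 bases after a start, were found for 9 of the 10 members, in 17 windows, since some genes have several starts. SLC7A11 had no entry. The search covered both strands for TGATGNAA, the core of the element that ATF4 binds together with C/EBP partners, and for CACGTG, the E-box that MYC binds. A match is printed in capitals, each sequence runs 5′ to 3′ on the strand of its gene, and the 2 motifs do not overlap in these windows.
SLC7A5, chr16:87869458-87869757, minus strand: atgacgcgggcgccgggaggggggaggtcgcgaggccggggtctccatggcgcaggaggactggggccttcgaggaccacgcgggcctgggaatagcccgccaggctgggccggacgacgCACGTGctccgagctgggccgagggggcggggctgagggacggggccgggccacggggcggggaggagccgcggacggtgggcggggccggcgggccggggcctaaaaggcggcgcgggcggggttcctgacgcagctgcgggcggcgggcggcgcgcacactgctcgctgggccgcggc
SLC3A2, chr11:62881449-62881748, plus strand: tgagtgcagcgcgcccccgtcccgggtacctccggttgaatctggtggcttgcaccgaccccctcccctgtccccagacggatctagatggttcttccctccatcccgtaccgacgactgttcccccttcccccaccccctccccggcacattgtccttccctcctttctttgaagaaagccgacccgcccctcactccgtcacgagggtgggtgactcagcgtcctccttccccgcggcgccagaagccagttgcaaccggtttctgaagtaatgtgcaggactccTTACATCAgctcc
SLC7A1, chr13:29595639-29595938, minus strand: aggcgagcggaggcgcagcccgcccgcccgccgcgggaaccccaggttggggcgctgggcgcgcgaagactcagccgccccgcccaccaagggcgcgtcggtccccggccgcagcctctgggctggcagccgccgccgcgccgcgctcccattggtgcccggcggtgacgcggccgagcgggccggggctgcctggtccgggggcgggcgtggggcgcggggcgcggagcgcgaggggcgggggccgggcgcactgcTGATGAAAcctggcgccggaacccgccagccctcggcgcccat
SLC1A5, chr19:46784765-46785064, minus strand: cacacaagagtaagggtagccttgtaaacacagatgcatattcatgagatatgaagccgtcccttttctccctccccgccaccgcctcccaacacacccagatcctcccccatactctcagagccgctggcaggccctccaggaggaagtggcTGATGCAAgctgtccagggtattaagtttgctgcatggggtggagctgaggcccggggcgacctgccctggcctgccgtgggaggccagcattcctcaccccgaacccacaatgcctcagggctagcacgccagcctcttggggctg
SLC38A1, chr12:46266467-46266766, minus strand: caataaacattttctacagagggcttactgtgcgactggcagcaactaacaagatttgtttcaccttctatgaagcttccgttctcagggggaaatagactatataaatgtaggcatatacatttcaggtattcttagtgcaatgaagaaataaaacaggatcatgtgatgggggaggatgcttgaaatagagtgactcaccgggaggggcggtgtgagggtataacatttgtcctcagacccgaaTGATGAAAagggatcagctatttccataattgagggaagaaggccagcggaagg
SLC6A9, chr1:44031413-44031712, minus strand: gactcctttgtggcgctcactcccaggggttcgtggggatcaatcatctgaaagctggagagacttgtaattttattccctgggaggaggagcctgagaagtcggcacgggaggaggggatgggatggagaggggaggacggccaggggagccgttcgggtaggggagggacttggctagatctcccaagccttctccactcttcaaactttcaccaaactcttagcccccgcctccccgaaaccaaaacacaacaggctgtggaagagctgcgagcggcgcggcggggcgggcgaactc

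TGATGNAA was found once in a window of each of SLC3A2, SLC7A1, SLC1A5 and SLC38A1, that is in 4 of 17 windows, while 3.62% of all 35116 windows of the same length hold it. In SLC3A2 the match lies on the strand opposite to the gene, 38 bases after one of the starts, and reads TTACATCA on the printed strand. In SLC7A1 it begins 8 bases after the start, in SLC38A1 4 bases before one of its starts and in SLC1A5 97 bases before one of its starts. For SLC3A2, SLC38A1 and SLC1A5 the window shown is the one with this match, and its start lies inside the annotated gene. The other windows of SLC3A2 and SLC38A1 held neither TGATGNAA nor CACGTG. The same was true of the SLC1A5 window at the outer end of the gene, chr19:46788545-46788844. CACGTG was found in 3 windows, of SLC7A5 (130 bases before the start), SLC43A1 (112 bases before) and another window of SLC1A5 (50 bases before), against 7.26% of all windows. The sequences shown take in every gene with a TGATGNAA match but leave out SLC43A1 and the SLC1A5 window with CACGTG. The SLC6A9 window held neither motif. TGACNNNGC, the core of the antioxidant element that NRF2 binds, was in 4 of the 17 windows, of SLC3A2, SLC7A1, SLC7A5 and SLC1A5, and in 13.3% of all windows. These matches describe letters in the sequence, and factor binding was not measured.

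In KO1 most of the transporters were more abundant than in Vector. Of the 10 members 7 rose and 1 fell by limma, a moderated linear model, at a Benjamini-Hochberg adjusted p under 0.05 over 16426 genes fitted, while 34.1% of all fitted genes were called (17.4% higher and 16.7% lower). In KO2 2 members rose and 6 fell, against 27.9% of all genes called (12.9% higher and 15% lower). Of these falls, those of SLC7A5, SLC3A2 and SLC7A1 lost their call under some settings. Between the clones 7 members were lower in KO2 than in KO1 and 0 were higher, against 30.9% of all genes called (14.5% higher and 16.4% lower). All 10 members passed the filter of a mean of at least 0.5 FPKM. Fold changes are differences of log2(FPKM + 1), which understates changes of weakly expressed genes. The median change over the members was 1.10 in KO1, -0.57 in KO2 and -1.24 in KO2 against KO1, beside 0.01, -0.01 and -0.02 over all fitted genes. The share of calls that were higher moved with the scaling. In KO1 it was 51.1% with the deposited scale and 38.9% as TPM, with each library rescaled to the same sum, and between the clones it was 47% and 61.6%. Groups that did not overlap over their 3 libraries were more common than calls. They were found for 8 members in KO1 (7 higher and 1 lower), against 50.1% of all genes (26% higher and 24.1% lower), and for 8 members in KO2 (2 higher and 6 lower), against 39% (18.3% higher and 20.7% lower). Between the clones 9 members did not overlap (1 higher and 8 lower in KO2), against 53.6% (24.8% higher and 28.8% lower). The KO1 and KO2 comparisons share the Vector libraries, so their values stand side by side and are not independent.

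**Figure D1:**
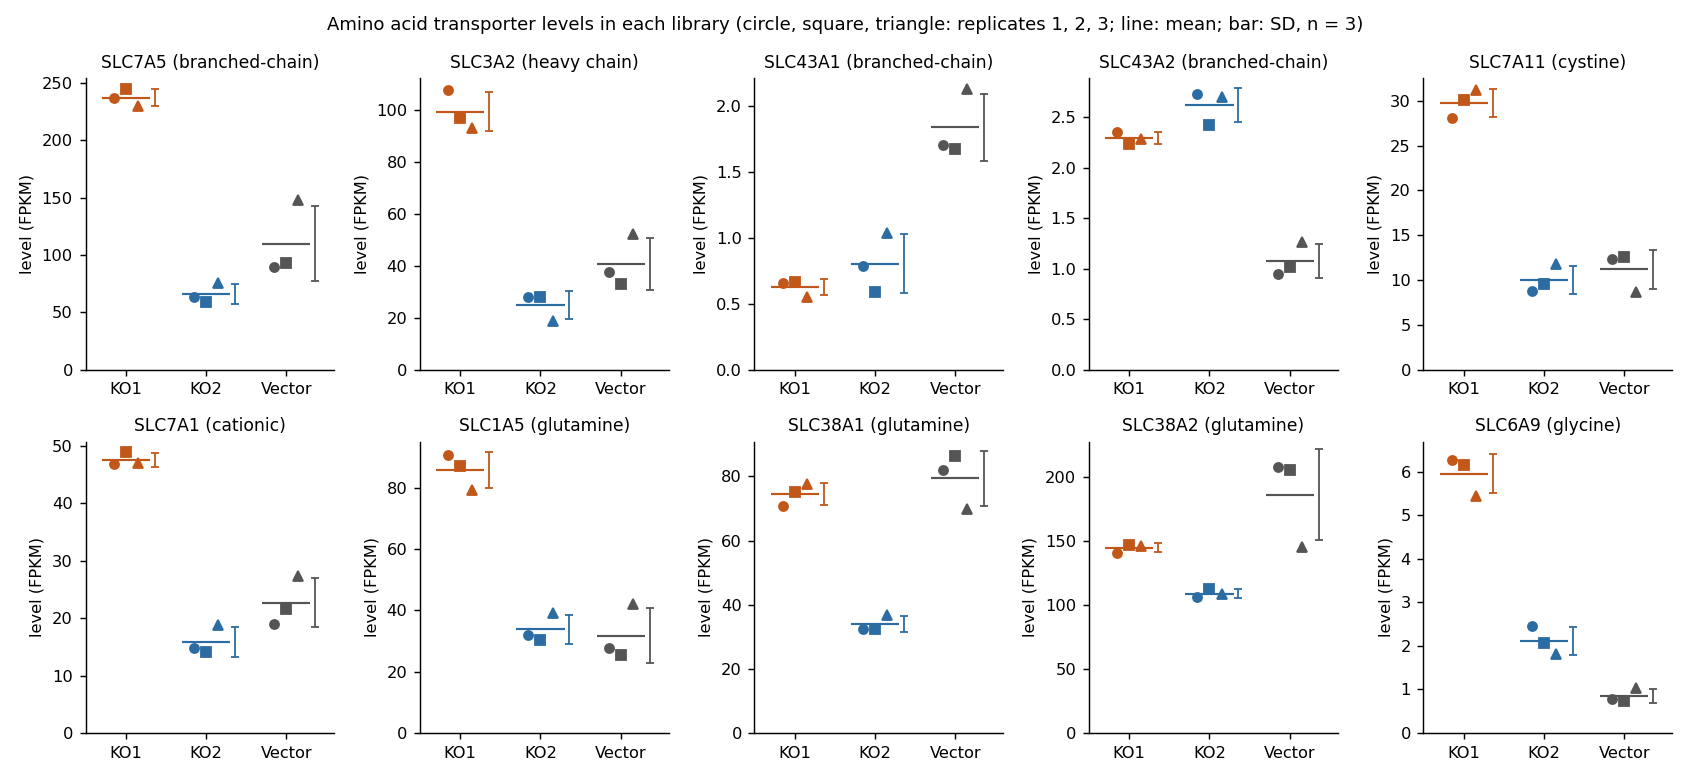
Level in FPKM (vertical axes, linear from 0) of each of the 10 transporters in the 3 libraries of KO1, KO2 and Vector, with the mean as a line and the SD as a bar. SLC7A5, SLC3A2, SLC7A11, SLC7A1, SLC1A5 and SLC6A9 have all 3 KO1 libraries above all other libraries, while SLC38A1 is low in KO2 alone.

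The light chain SLC7A5 (ENSG00000103257, chromosome 16, 87830023 to 87869488 of hg38, minus strand) was the most abundant branched-chain carrier in every library. It measured 237, 245 and 230 FPKM in KO1 and 63.1, 59.2 and 75.3 FPKM in KO2, against 89.1, 92.7 and 148 FPKM in Vector. The 3 groups did not overlap, with KO1 highest, KO2 lowest and Vector replicate 3 the highest of its group. SLC7A5 rose in KO1 by a log2 fold change of 1.14 (SE 0.19, limma adjusted p = 0.00175) and was lower in KO2, where the fold change was -0.70 (SE 0.19, limma adjusted p = 0.0232). The value in KO2 shrank to -0.47 without Vector replicate 3 (limma adjusted p = 0.0124), and the call there was lost without KO2 replicate 1 (0.0674) and without KO2 replicate 2 (0.0788). It was lost too when KO2 and Vector were fitted without KO1 (limma adjusted p = 0.0682) and with no filter on low genes (0.0528).

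The heavy chain SLC3A2 (ENSG00000168003, chromosome 11, 62856102 to 62888875, plus strand) followed the same order of the groups. Levels were 108, 96.8 and 93.1 FPKM in KO1 and 28.1, 28.1 and 18.8 FPKM in KO2, against 37.5, 32.8 and 52.0 FPKM in Vector. No KO1 library overlapped with Vector, and the highest KO2 library stood below the lowest Vector library. In KO1 SLC3A2 rose (log2 1.28, SE 0.20, limma adjusted p = 0.00117), and in KO2 it fell (log2 -0.68, SE 0.20, limma adjusted p = 0.0305). Its call in KO2 was lost without Vector replicate 1 (limma adjusted p = 0.0619), without Vector replicate 3 (0.0558) and without KO2 replicate 3 (0.0737), and also with values rescaled to TPM (0.0591), when KO2 and Vector were fitted without KO1 (0.0761), with no filter (0.0647) and with the replicate number as a block (0.0623). Without both libraries that stood apart the value was -0.31 (limma adjusted p = 0.0248).

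The chains of LAT1 kept a similar ratio across the lines. Levels of SLC7A5 stood over those of SLC3A2 at 2.21, 2.53 and 2.47 in KO1 and at 2.25, 2.11 and 4.01 in KO2, against 2.37, 2.82 and 2.85 in Vector. The outlying value of 4.01 is KO2 replicate 3, in which SLC3A2 was lowest and SLC7A5 highest of the KO2 libraries. Between the clones both chains were lower in KO2, with log2 differences of -1.84 for SLC7A5 (limma adjusted p = 0.000146) and -1.97 for SLC3A2 (0.000129).

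SLC43A1 and SLC43A2, the uniporters for branched-chain amino acids, were scarce and moved in opposite directions. SLC43A1 (ENSG00000149150, chromosome 11, 57484534 to 57515786, minus strand) was listed at 0.656, 0.662 and 0.553 FPKM in KO1 and 0.785, 0.585 and 1.03 FPKM in KO2, against 1.70, 1.67 and 2.13 FPKM in Vector. These levels rest on 33 to 38 reads in KO1 and 37 to 59 in KO2, against 99 to 132 in Vector. For KO1 replicate 3, with 33 reads, the 95% exact Poisson interval was 0.381 to 0.776 FPKM, and for Vector replicate 2, with 100 reads, it was 1.36 to 2.03 FPKM; such intervals cover counting error only. SLC43A1 fell in KO1 (log2 -0.80, SE 0.13, limma adjusted p = 0.00135), where the mean level was 0.34 of that in Vector. The fall in KO2 was -0.66 on the same scale (SE 0.13, limma adjusted p = 0.00487).

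SLC43A2 (ENSG00000167703, chromosome 17, 1569267 to 1628886, minus strand) stood at 2.35, 2.24 and 2.29 FPKM in KO1 and 2.73, 2.43 and 2.702 FPKM in KO2, against 0.945, 1.01 and 1.27 FPKM in Vector. All 6 knockout libraries were above all 3 Vector libraries. SLC43A2 rose in KO1 (log2 0.67, SE 0.10, limma adjusted p = 0.000954) and in KO2 (log2 0.80, SE 0.10, limma adjusted p = 0.00044). Within a library the ratio of SLC43A1 to SLC43A2 was 0.242 to 0.296 in KO1 and 0.241 to 0.382 in KO2, against 1.65 to 1.80 in Vector. By FPKM SLC43A2 was thus the more abundant of the pair in each knockout library and SLC43A1 in each Vector library. The order in Vector depends on the division by merged exon length, 10606 bases for SLC43A2 and 3532 for SLC43A1. In reads SLC43A2 was ahead in Vector too, at 165 to 236 against 99 to 132 for SLC43A1. Neither gene passed the test between the clones, with a log2 difference of 0.14 for SLC43A1 (95% interval -0.14 to 0.43) and 0.14 for SLC43A2 (-0.09 to 0.36).

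**Figure D2:**
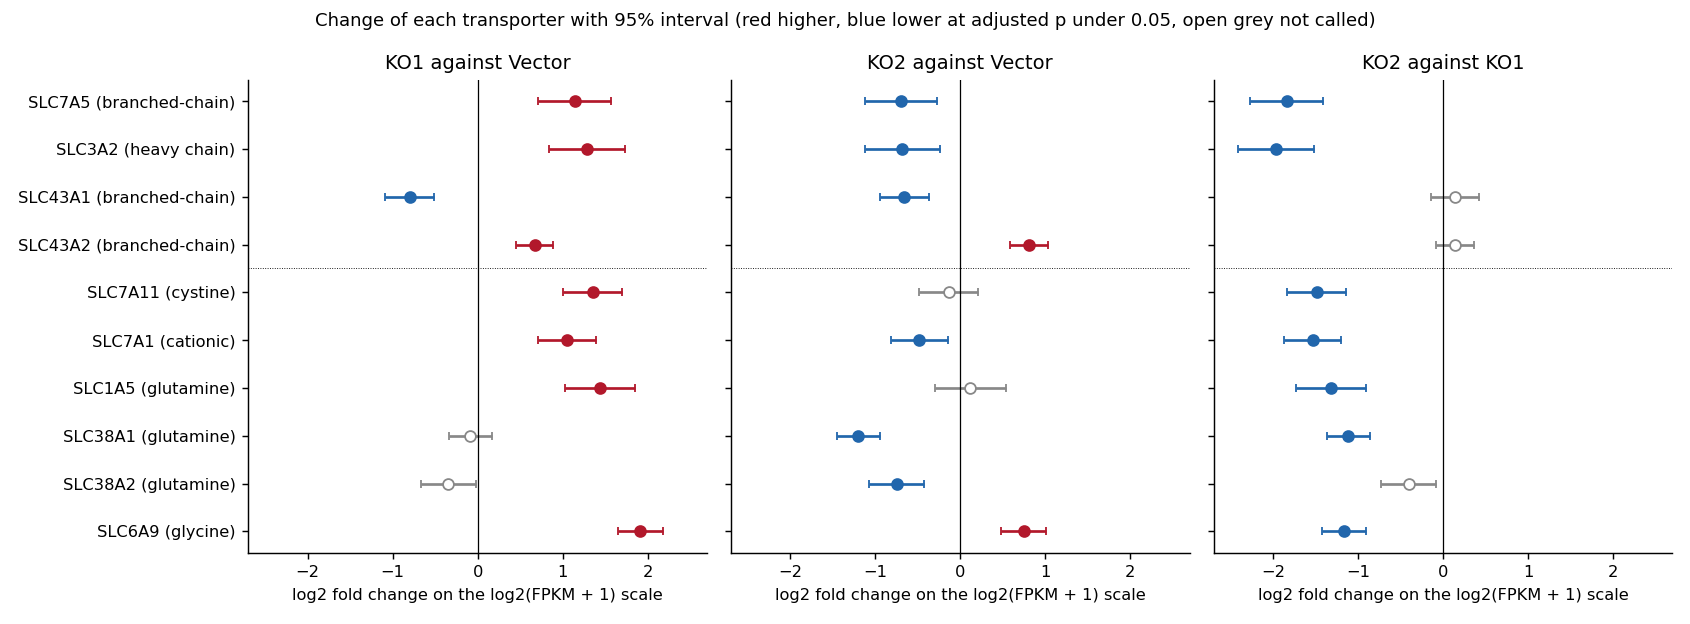
Log2 fold change on the log2(FPKM + 1) scale (horizontal axes) with its 95% interval for each transporter in each clone against Vector and between the clones (KO2 over KO1), with the branched-chain carriers above the dotted line. SLC7A5 and SLC3A2 lie right of 0 in KO1 and left of 0 in KO2, while SLC43A1 lies left of 0 and SLC43A2 right of 0 in both clones.

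SLC7A11, the cystine carrier (ENSG00000151012, chromosome 4, 138164097 to 138242349, minus strand), was high in KO1 alone. It measured 28.1, 30.1 and 31.2 FPKM in KO1 and 8.73, 9.61 and 11.8 FPKM in KO2, against 12.3, 12.6 and 8.64 FPKM in Vector. KO1 did not overlap with the other groups, whereas KO2 and Vector overlapped. SLC7A11 rose in KO1 (log2 1.35, SE 0.15, limma adjusted p = 0.000208) and had a value of -0.14 in KO2 (95% interval -0.48 to 0.21, limma adjusted p = 0.553). Without both libraries that stood apart the KO2 value was -0.41 and was called (limma adjusted p = 0.00299). Its ratio to SLC3A2, the heavy chain it shares with SLC7A5, was 0.262 to 0.335 in KO1 and 0.311 to 0.626 in KO2, against 0.166 to 0.383 in Vector, ranges that overlap.

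SLC7A1, the carrier of arginine and lysine (ENSG00000139514, chromosome 13, 29509410 to 29595688, minus strand), stood at 46.8, 48.9 and 47.0 FPKM in KO1 and 14.8, 14.0 and 18.9 FPKM in KO2, against 19.0, 21.5 and 27.4 FPKM in Vector. The groups did not overlap, although the highest KO2 library (18.9 FPKM) lay just under the lowest Vector library. SLC7A1 rose in KO1 (log2 1.05, SE 0.15, limma adjusted p = 0.000771). In KO2 it fell by 0.48 on the log2 scale (SE 0.15, limma adjusted p = 0.0402), a call that 7 of the 9 single-library omissions ended, with adjusted p up to 0.132 without KO2 replicate 2. The 7 were those without Vector replicate 2 or 3, without any of the 3 KO1 libraries, and without KO2 replicate 1 or 2, and the call was lost too with values rescaled to TPM (limma adjusted p = 0.0511), when KO2 and Vector were fitted without KO1 (0.107) and with no filter (0.071).

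SLC1A5, SLC38A1 and SLC38A2, the glutamine carriers, did not move alike. SLC1A5 (ENSG00000105281, chromosome 19, 46774883 to 46788594, minus strand) measured 90.5, 87.2 and 79.1 FPKM in KO1 and 31.9, 30.3 and 39.2 FPKM in KO2, against 27.7, 25.2 and 42.0 FPKM in Vector. KO1 was above every other library, and KO2 lay within the range of Vector. SLC1A5 rose in KO1 (log2 1.44, SE 0.18, limma adjusted p = 0.000407). In KO2 its value was 0.12 (95% interval -0.30 to 0.53, limma adjusted p = 0.671), and the sign turned without Vector replicate 2 (-0.02).

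SLC38A1 (ENSG00000111371, chromosome 12, 46183063 to 46270017, minus strand) stood at 70.9, 75.1 and 77.6 FPKM in KO1 and 32.4, 32.4 and 36.7 FPKM in KO2, against 82.0, 86.4 and 69.9 FPKM in Vector. KO2 was below every other library, and KO1 and Vector overlapped. SLC38A1 fell in KO2 to 0.426 of its mean in Vector (log2 -1.20, SE 0.11, limma adjusted p = 8.44e-05), close to the ratio of 0.436 for SLC43A1. In KO1 the value was -0.09 (95% interval -0.34 to 0.17, limma adjusted p = 0.591), and it was -0.17 and passed the test without both libraries that stood apart (0.0294).

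SLC38A2 lies near SLC38A1 on the same strand (ENSG00000134294, chromosome 12, 46358189 to 46372867, minus strand). It measured 141, 147 and 146 FPKM in KO1 and 106, 112 and 109 FPKM in KO2, against 208, 205 and 145 FPKM in Vector. The low Vector value is replicate 3, which overlapped with KO1. Its fall in KO2 had a log2 value of -0.75 (SE 0.14, limma adjusted p = 0.00468). In KO1 its value of -0.34 was not called (limma adjusted p = 0.093) but was called without Vector replicate 3 (-0.51, 0.00119), with values rescaled to TPM (-0.44, 0.0408) and with limma-voom on reads scaled by library size (-0.44, 0.0288). Between the clones SLC38A2 differed by -0.41, which missed the threshold (limma adjusted p = 0.0582), and it passed when KO1 and KO2 were fitted alone (0.00445), with neighbours subtracted (0.0295), with limma-voom and TMM scaling (0.0486), without Vector replicate 3 (0.00226) and on omitting KO2 replicate 3 as well (0.000798). The summed level of the 3 glutamine carriers was 302.3 to 309 FPKM in KO1 and 170.3 to 184.6 FPKM in KO2, against 257 to 318 FPKM in Vector. SLC1A5 made up 26.1% to 29.95% of that sum in KO1 and 17.3% to 21.2% in KO2, against 7.96% to 16.3% in Vector.

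**Figure D3:**
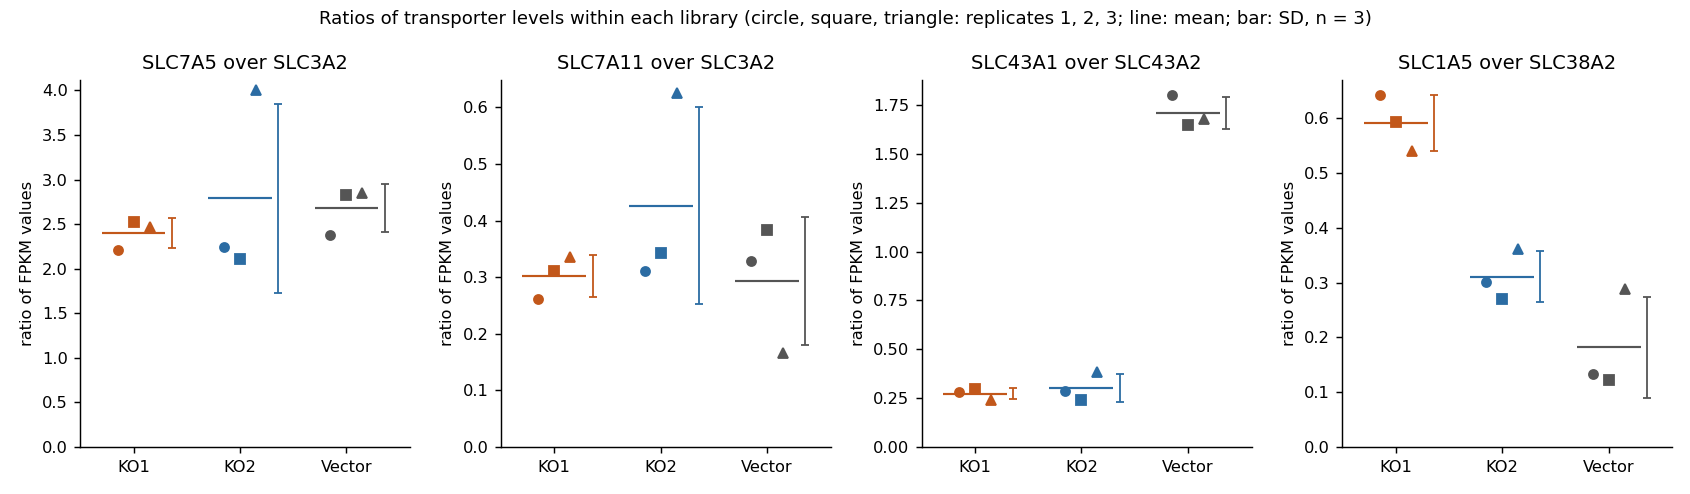
Ratios of FPKM values within each library (vertical axes, linear from 0) in KO1, KO2 and Vector, with the mean as a line and the SD as a bar. SLC43A1 over SLC43A2 is 0.241 to 0.382 in the 6 knockout libraries and 1.65 to 1.80 in the 3 Vector libraries, and SLC7A5 over SLC3A2 is 2.11 to 2.85 except in KO2 replicate 3.

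SLC6A9, the glycine carrier (ENSG00000196517, chromosome 1, 43991500 to 44031467, minus strand), showed the largest rise of the members in KO1. It was listed at 6.27, 6.15 and 5.45 FPKM in KO1 and 2.46, 2.05 and 1.81 FPKM in KO2, against 0.789, 0.721 and 1.04 FPKM in Vector, from 475 to 516 reads in KO1 and 151 to 224 in KO2, against 63 to 94 in Vector. The 3 groups did not overlap. SLC6A9 rose in KO1 (log2 1.91, SE 0.12, limma adjusted p = 4.86e-06), with a mean level 7.01 times that of Vector, and in KO2 (log2 0.75, SE 0.12, limma adjusted p = 0.00167), with a mean level 2.48 times that of Vector. It was the member with all 6 knockout libraries above Vector that also differed between the clones (log2 -1.17, limma adjusted p = 0.000125).

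Set side by side, the branched-chain carriers did not move as one class. SLC3A2 was counted among them as the heavy chain of LAT1, although it also pairs with SLC7A11. SLC6A15, described below, is outside the members and was not counted. Of the 4 (SLC7A5, SLC3A2, SLC43A1 and SLC43A2) 3 rose and 1 fell in KO1, with a median log2 fold change of 0.91 and a range from -0.80 to 1.28. Of the 6 carriers of cystine, cationic amino acids, glutamine and glycine 4 rose and 0 fell in KO1, with a median of 1.204 and a range from -0.34 to 1.91. The pseudocount shrinks the values of the weakly expressed SLC43A1 and SLC43A2 among the 4, and of SLC6A9 among the 6. By limma-voom with TMM scaling these were -1.56, 1.09 and 2.80 in KO1, so the medians and ranges of the classes depend on the scale. In KO2 1 of the 4 rose and 3 fell (median -0.67), while 1 of the 6 rose and 3 fell (median -0.31). The KO2 falls of SLC7A5 and SLC3A2 among the 4, and of SLC7A1 among the 6, lost their call under some settings. Between the clones 2 of the 4 and 5 of the 6 were lower in KO2, with medians of -0.85 and -1.24. Of all fitted genes 34.1% were called in KO1, 27.9% in KO2 and 30.9% between the clones (16.4% lower). The ranges of the classes overlapped in each comparison, and no test was made between them because the members were chosen with earlier results known. SLC7A5 and SLC1A5, an importer of leucine and an importer of glutamine, had a ratio of levels of 2.62 to 2.91 in KO1 and 1.92 to 1.98 in KO2, against 3.21 to 3.67 in Vector, so the groups did not overlap in this ratio.

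The order of the members by level changed between the lines. In KO1 SLC7A5 came first (237 FPKM), then SLC38A2 (145), SLC3A2 (99.2), SLC1A5 (85.6), SLC38A1 (74.5), SLC7A1 (47.6), SLC7A11 (29.8), SLC6A9 (5.96), SLC43A2 (2.29) and SLC43A1 (0.624), and no neighbours in that order overlapped over the 3 libraries. In KO2 the order was SLC38A2 (109 FPKM), SLC7A5 (65.9), SLC38A1 (33.9), SLC1A5 (33.8), SLC3A2 (24.99), SLC7A1 (15.9), SLC7A11 (10.04), SLC43A2 (2.62), SLC6A9 (2.11) and SLC43A1 (0.801). There SLC38A1 overlapped with SLC1A5, SLC3A2 with SLC7A1, and SLC43A2 with SLC6A9. In Vector the order was SLC38A2 (186 FPKM), SLC7A5 (110.0), SLC38A1 (79.4), SLC3A2 (40.8), SLC1A5 (31.6), SLC7A1 (22.7), SLC7A11 (11.2), SLC43A1 (1.83), SLC43A2 (1.07) and SLC6A9 (0.849). In Vector SLC38A2 overlapped with SLC7A5, SLC3A2 with SLC1A5, SLC1A5 with SLC7A1, and SLC43A2 with SLC6A9. SLC6A9 thus moved up from the lowest place in Vector, and SLC43A1 stood last in both clones.

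Within Vector, replicate 3 gave the highest or the lowest value of each member, and no pattern in this was tested. It gave the highest Vector value for SLC7A5, SLC3A2, SLC7A1, SLC1A5, SLC43A1, SLC43A2 and SLC6A9, and the lowest for SLC7A11, SLC38A1 and SLC38A2. For the scarce SLC43A1, SLC43A2 and SLC6A9 its 95% exact Poisson interval overlapped with that of Vector replicate 2. Without Vector replicate 3 the rises in KO1 were 1.37 for SLC7A5, 1.47 for SLC3A2, 1.19 for SLC7A1, 1.65 for SLC1A5, 1.19 for SLC7A11 and 1.98 for SLC6A9 on the log2 scale, each past the threshold.

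Values of genes near each member were recorded beside these results, and their part in them was not tested. The median log2 fold change of the other fitted genes within 5 Mb ranged over the 10 members from -0.11 (SLC38A1) to 0.33 (SLC7A1) in KO1 and from -0.26 (SLC7A1) to 0.30 (SLC3A2) in KO2. Each of the 7 rises in KO1 was larger than its neighbours' median. With that median subtracted in each library, the rises of SLC43A2 (0.40, limma adjusted p = 0.00763) and SLC7A1 (0.70, 0.0238) in KO1 were the ones reduced by over 1.5 times, and the difference of SLC7A1 between the clones was -0.98 (0.00486). SLC43A1 fell in both clones beside neighbours at 0.29 in KO1 and 0.12 in KO2. For SLC7A1 in KO2 the neighbours, 31 genes, stood at -0.26, and after the same subtraction SLC7A1 stood at -0.28 and missed the threshold (limma adjusted p = 0.315). Subtraction also turned the sign of 2 values that had not passed, SLC38A1 in KO1 (0.06) and SLC1A5 in KO2 (-0.10).

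**Figure D4:**
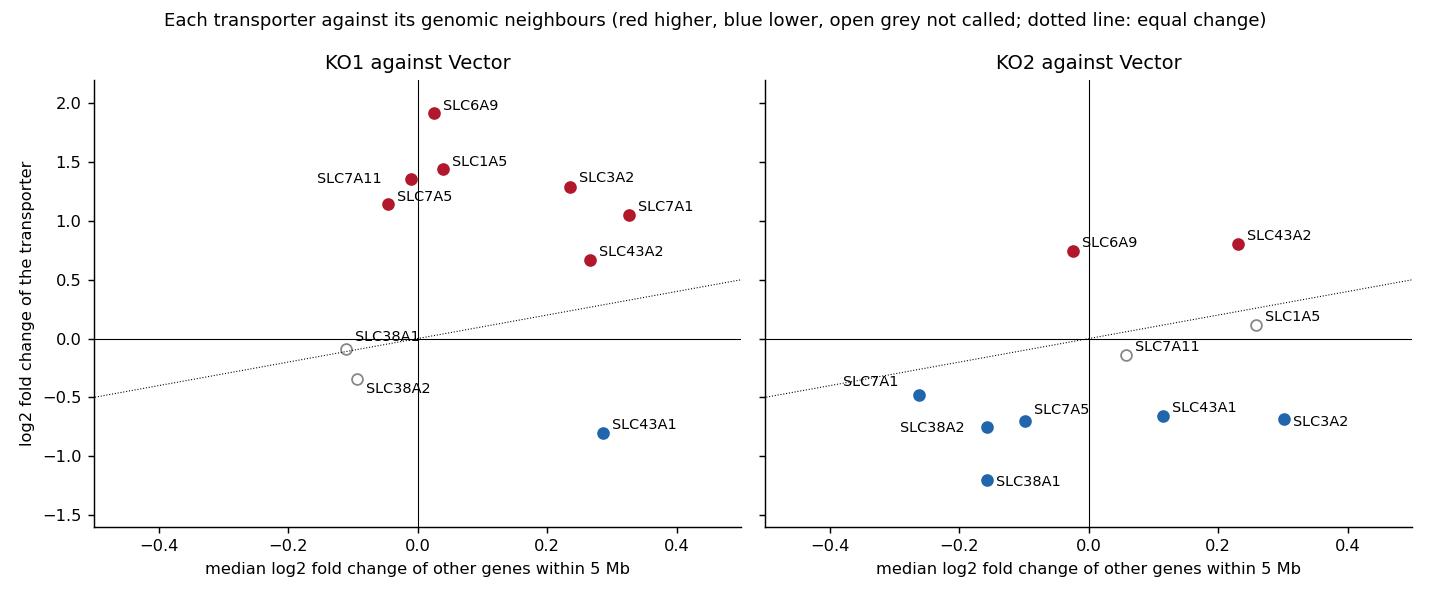
Log2 fold change of each transporter (vertical axis) against the median log2 fold change of the other fitted genes within 5 Mb (horizontal axis), for KO1 and KO2 against Vector; the dotted line marks equal change. The rises in KO1 lie above the line, and SLC7A1 in KO2 is the called gene closest to it.

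Some reads of these genes could belong to others, because neither the strand setting nor the handling of multiply mapped reads is given in the sources used here. SLC1A5 shares 23.4% of its exon bases with the antisense gene AC008622.2, which was listed at no more than 0.241 FPKM. SLC7A11 shares 8.97% with SLC7A11-AS1, at no more than 0.509 FPKM, and SLC6A9 shares 7.83% with CCDC24 on the opposite strand, which had 2.86 to 2.997 FPKM in KO1 and 2.69 to 4.51 FPKM in KO2, against 2.24 to 4.20 FPKM in Vector. SLC7A5 shares 5.71% of its exon bases with the antisense gene AC126696.2. That gene was listed at 0.707 to 1.36 FPKM in KO1 and 0 to 0.325 FPKM in KO2, against 0 to 0.34 FPKM in Vector. These levels rest on 6 to 12 reads in KO1 and 0 to 3 in KO2, against 0 to 3 in Vector. SLC7A5 itself had 5037 to 18878 reads per library. SLC7A5 also has pseudogene copies. Of its 4695 stretches of 50 bases 3.86% also occur in SLC7A5P2, listed at 0 in all libraries, the same share in SMG1P3, whose level was not analysed here, and 0.682% in SLC7A5P1, listed at no more than 2.01 FPKM. For SLC3A2, SLC43A1, SLC7A1 and SLC38A2 the share found in transcripts of any other gene was 0%. It was 3.31% for SLC43A2, with 1.41% in NABP1 as the largest share in a single gene, and 0.263% for SLC38A1. The levels of the genes that share stretches with these 2 members were not analysed here.

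Other amino acid carriers of the plasma membrane were read from a list of 30 genes. Of these 10 were listed at 0 in all 9 libraries, 13 more stayed under the filter and 7 were fitted. In KO1 5 of the 7 rose and 1 fell, with a median log2 fold change of 0.46, and in KO2 2 rose and 0 fell (median 0.05), beside 34.1% and 27.9% of all fitted genes called in either direction. The share in KO2 was thus near that of all genes. SLC6A17, known in neurons as a carrier of neutral amino acids into synaptic vesicles, rose in both clones, at 4.38 ± 0.0883 FPKM in KO1 and 2.50 ± 0.0734 FPKM in KO2, against 0.939 ± 0.341 FPKM in Vector (SD, n = 3 each; log2 1.49 and 0.87, limma adjusted p = 4.11e-05 and 0.00134). SLC6A15, a sodium-coupled carrier of branched-chain amino acids and proline, rose in KO1 to 18.5 ± 0.383 FPKM, against 7.93 ± 1.85 FPKM in Vector (log2 1.15, limma adjusted p = 0.000405), and measured 6.07 ± 0.409 FPKM in KO2 (log2 -0.32, 0.142). SLC1A4, a relative of SLC1A5 that carries serine, alanine and cysteine, rose in KO1 to 13.3 ± 0.543 FPKM, against 7.02 ± 1.08 FPKM in Vector (log2 0.84, limma adjusted p = 0.00125). SLC7A2, a relative of SLC7A1, fell in KO1 (log2 -0.56, limma adjusted p = 0.01), and the glutamate carrier SLC1A1 rose in KO2 (log2 0.50, 0.00685). Between the clones SLC6A15 (-1.47), SLC1A4 (-1.06) and SLC6A17 (-0.62) were lower in KO2 and passed the test (limma adjusted p = 0.000127, 0.000413 and 0.00676).

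Carriers of lysosomes and mitochondria had medians nearer to 0 than the members. Of 12 fitted genes from a list of 15 names 5 rose and 1 fell in KO1, and 0 rose and 2 fell in KO2, with median log2 fold changes of 0.33 and -0.03, beside 34.1% and 27.9% of all fitted genes called. SLC36A1, a proton-coupled amino acid carrier of lysosomes (log2 0.58), CTNS, which exports cystine from lysosomes (0.57), and SLC25A38, a mitochondrial glycine carrier (0.51), rose in KO1 (limma adjusted p = 0.00132, 0.0131 and 0.00412). SLC25A13, the aspartate and glutamate carrier of mitochondria, fell to 19.4 ± 0.791 FPKM in KO1 and 20.7 ± 2.22 FPKM in KO2, against 31.5 ± 2.75 FPKM in Vector (SD, n = 3 each; log2 -0.67 and -0.58, limma adjusted p = 0.0016 and 0.0042). SLC25A15, the ornithine carrier, fell in KO2 (log2 -0.44, limma adjusted p = 0.00494) and rose in KO1 (0.44, 0.0038). SLC25A44, the mitochondrial carrier of branched-chain amino acids, which was singled out after its values were seen, measured 5.69 ± 0.308 FPKM in KO1 and 6.46 ± 0.173 FPKM in KO2, against 5.36 ± 0.206 FPKM in Vector, and passed in neither comparison (log2 0.07 and 0.23, limma adjusted p = 0.557 and 0.073).

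**Figure D5:**
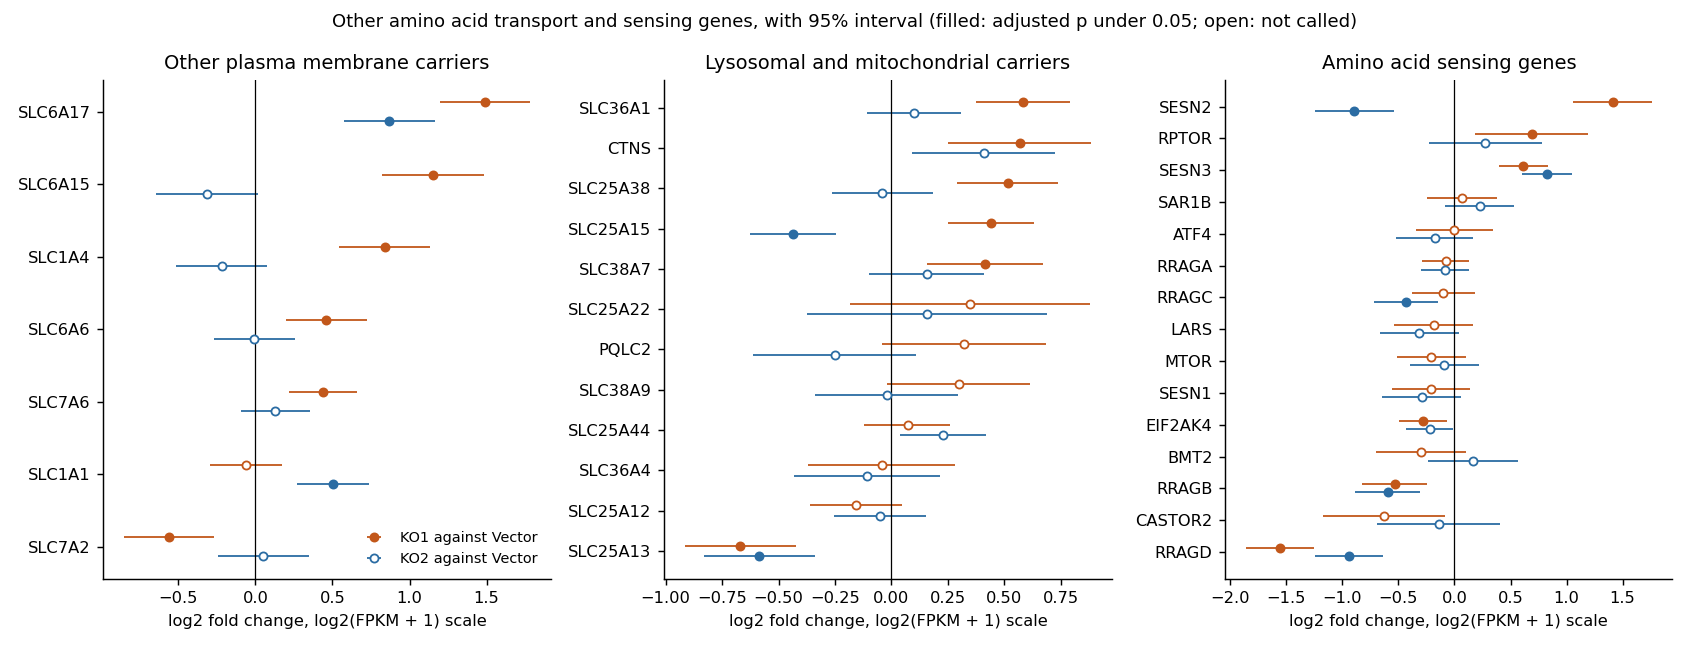
Log2 fold change with 95% interval (horizontal axes) in KO1 and KO2 against Vector for fitted genes of 3 lists, namely other plasma membrane carriers, carriers of lysosomes and mitochondria, and amino acid sensing genes; filled points passed the test. SLC6A17 and SESN3 lie right of 0 in both clones, RRAGD and SLC25A13 lie left of 0 in both, and SESN2 lies on opposite sides.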

How the data were processed

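Libraries were made from total RNA with a NEBNext Ultra kit, per the labels' protocols. The submitters' processing notes name featureCounts 1.5.0-p3, HISAT2 2.0.5, CASAVA 1.6 and the build hg38, with no options. The authors deposited FPKM values for 58735 genes, whose scale per library follows a size factor (ratio 1.0 to the median-of-ratios factor of the recovered reads in each library). Multiplied by merged exon length in GENCODE 29, the values gave whole reads (within 0.02) for 100.0% of non-zero entries, which gave the depth per library. Positions and exon lengths come from GENCODE 29 on hg38, where all identifiers were found, and promoter windows from RefSeq.

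A pseudocount of 1 FPKM was added before taking log2. The 16426 genes averaging 0.5 FPKM or more were fitted with limma 3.58.1 (R 4.3.3, trended empirical Bayes), all 9 libraries in one fit with group as the term. P-values were adjusted over all fitted genes within each of the 3 comparisons. Other settings were another pseudocount (0.1), other filters, scalings, limma-voom on recovered reads, a replicate block, neighbour subtraction and libraries left out. Named genes are the 10 members and, per list and clone, up to 3 rising and 3 falling genes with the largest change among those called. The members and lists were chosen with earlier results of these data known.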

Additional observations from a re-analysis of the deposited data

Results flagged for a closer look

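Levels differed between the KO2 and KO1 clones for 7 of the 10 transporters by the direct test (limma, Benjamini-Hochberg adjusted over 16426 genes). The log2 difference, KO2 minus KO1, was -1.97 for SLC3A2 (adjusted p = 0.000129), -1.84 for SLC7A5 (0.000146), -1.54 for SLC7A1 (0.00011), -1.49 for SLC7A11 (0.00015), -1.32 for SLC1A5 (0.000794), -1.17 for SLC6A9 (0.000125) and -1.12 for SLC38A1 (0.000125). In each of these genes all 3 KO2 libraries lay below all 3 KO1 libraries. Near SLC7A1 the 31 other fitted genes within 5 Mb had a median of -0.60 between the clones, and their part was not tested. For SLC7A5, SLC3A2 and SLC7A1 the clones were called on opposite sides of Vector, although each of these falls in KO2 lost its call under some settings. No cause of the difference between the clones was tested.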

How the results depend on the processing

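Of 564 values of single transporters under other settings, 528 kept their direction and their side of the threshold, 22 lost a call, 11 gained one and 3 turned sign. The sign turned for SLC38A1 in KO1 with neighbours subtracted (0.063) and for SLC1A5 in KO2 with neighbours subtracted (-0.10) and without Vector replicate 2 (-0.022; range over the 9 omissions -0.02 to 0.33). All 22 lost calls were those of SLC7A5, SLC3A2 and SLC7A1 in KO2. Counts over all genes moved with the libraries. Omitting both libraries that stood apart gave 4860 higher and 4418 lower genes in KO1 (2865 and 2744 with all libraries), 3941 and 4149 in KO2 (2115 and 2471), and 4302 lower in KO2 against KO1 (2693). Leaving out 1 library gave 1821 to 3819 higher and 1891 to 3467 lower genes in KO1, 1464 to 3098 and 1693 to 3389 in KO2, and 1631 to 3057 and 1710 to 3676 between the clones. The highest count of each came without Vector replicate 3, and the lowest without KO1 replicate 1 or 2 or, in KO2, Vector replicate 1. A filter of at least 2 FPKM gave 1806 lower genes in KO1 and 1577 higher in KO2 against KO1 (2386), and left 2 called branched-chain carriers of 4 in each clone because SLC43A1 and SLC43A2 were no longer tested. With no filter, and in a fit of KO2 and Vector alone, 2 of the 4 were called in KO2, and the fit of KO2 and Vector alone called 1350 higher and 1613 lower genes; the cause was not tested. The replicate block gave 2484 higher and 2427 lower genes in KO1 and 1804 and 2149 in KO2, and ended 1 call of a member (SLC3A2 in KO2, adjusted p = 0.0623). Same-numbered libraries deviated together weakly or not at all (correlations -0.2 to 0.14), so the numbers were not taken to pair the libraries. Low read numbers limit SLC43A1, at 33 to 132 reads per library.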

Other observations

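Genes that sense amino acids were read from a list of 17 names, of which 15 were fitted. In KO1 3 rose and 3 fell (median log2 fold change -0.18), and in KO2 1 rose and 4 fell (median -0.18), shares near the 34.1% and 27.9% of all fitted genes called. SESN2, a leucine-binding inhibitor of mTORC1 signalling and a known ATF4 target, measured 106.5, 112 and 105 FPKM in KO1 and 20.2, 20.7 and 22.1 FPKM in KO2, against 35.4, 33.9 and 52.6 FPKM in Vector. Its groups did not overlap, and it rose in KO1 (log2 1.41, limma adjusted p = 0.000173), fell in KO2 (-0.89, 0.00301) and was lower in KO2 than in KO1 (-2.31, 1.35e-05). SESN3, a related gene, rose in KO1 (log2 0.61, limma adjusted p = 0.00137) and in KO2 (0.82, 0.000349). RPTOR, the mTORC1 scaffold, rose in KO1 (0.69, 0.0396) and was not called in KO2 (0.28, 0.394). It measured 12.35, 12.22 and 12.13 FPKM in KO1 and 7.94, 7.32 and 12.18 FPKM in KO2, against 5.585, 6.33 and 10.42 FPKM in Vector. The highest values in KO2 and in Vector are those of replicate 3, the libraries that stood apart.

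RRAGD, one of the GTPases that bring mTORC1 to lysosomes, fell in both clones, at 3.16, 3.23 and 3.23 FPKM in KO1 and 4.94, 4.70 and 7.002 FPKM in KO2, against 12.6, 10.9 and 10.8 FPKM in Vector (log2 -1.56 and -0.94, limma adjusted p = 3.85e-05 and 0.00107). RRAGB, of the same family, fell in KO1 (-0.53, 0.0117) and in KO2 (-0.59, 0.00866). RRAGC fell in KO2 (-0.43, 0.0313), a gene outside the rule for named genes and chosen after its values were seen. EIF2AK4, the kinase GCN2 that senses uncharged tRNA, fell in KO1 (-0.28, 0.0446). ATF4, singled out after its values were seen, measured 161.5 ± 8.96 FPKM in KO1 and 144 ± 27.0 FPKM in KO2, against 162 ± 15.2 FPKM in Vector (SD, n = 3 each), and passed in neither comparison (log2 0 and -0.18, limma adjusted p = 0.999 and 0.425). Its transcript level does not show its protein level, which is known to be set mainly by translation.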
